A study of Zea mays with 48 samples.

Results

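The comparison is between leaves of the bzip60-2 maize mutant grown at a maximum daily temperature of 37 °C and leaves of the same mutant grown at 35 °C, both at the V5 stage. It uses 6 of the 48 libraries of the series, chosen by their labelled genotype, stage and temperature: 3 libraries at 37 °C and 3 at 35 °C. At V5 the collar of leaf 5 is visible, and plants were sampled 27 days after germination. All groups used here were moved to the growth chambers at 7 days, had 16 h of light and 8 h of dark, and had nights that fell to 10 °C below the daily maximum. RNA came from the middle of the newest fully expanded leaf. The labels name the mutant without describing its allele. The groups set beside the comparison are W22, the inbred line that the series sets against the mutant, at V5 and the same temperatures, and bzip60-2 at V4 (leaf 4, 20 days), with 3 libraries each. The full series covers both genotypes and both stages at 31, 33, 35 and 37 °C.

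When misfolded proteins gather in the endoplasmic reticulum, the unfolded protein response raises the capacity for folding, and bZIP60 is one of the transcription factors that carry it out. In plants its messenger RNA is spliced by the membrane sensor IRE1, and the shortened product moves to the nucleus. Heat also acts on chloroplasts and mitochondria, whose own small genomes encode core subunits of photosynthesis, respiration and organelle ribosomes. The question behind the series is the link between the unfolded protein response and heat.

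Levels are given as FPKM, which counts fragments per kilobase of a transcript relative to all mapped fragments. In the 6 libraries they summed to between 882274 and 898677, and 26170 to 26639 genes were above 0. Absolute depth is unknown. The steps between the lowest values put the relative depth of the 6 libraries at 0.9959 to 1.008, on a scale set by all 48 libraries. Over 3967 well-measured genes (at least 20 FPKM in every library), the median coefficient of variation between replicates was 3.94% at 35 °C and 3.72% at 37 °C. The 100 most abundant genes took 25.13% to 25.24% of the FPKM at 35 °C and 27.11% to 27.87% at 37 °C. The table does not pair its 30432 nuclear identifiers with gene names, so nuclear genes are given by identifier, the transcript of bZIP60 was not analysed here, and the mutation could not be checked. Markers of leaf cell types were not analysed either, apart from plastid genes. Of those, psbA (a photosystem II reaction centre protein) never exceeded 0.47 FPKM in the 48 libraries, and rbcL (the large subunit of Rubisco) never exceeded 0.53. Poly(A) selection removes most organelle RNA, and the plastid and mitochondrial values below carry that limit.

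Raising the daily maximum from 35 to 37 °C went with a change in 9339 of 22794 genes tested, a background of 41% (limma on log2(FPKM + 1), Benjamini-Hochberg adjusted p below 0.05). Of these, 3639 genes (16%) were higher at 37 °C and 5700 (25%) were lower. Most changes were small: 2339 of the higher and 3419 of the lower genes moved by less than 0.5 on the log2 scale. At least 2-fold higher were 254 genes (1.11%), and at least 2-fold lower were 523 (2.29%). A log2 change of 3 or more was seen in 14 genes upward and in 5 downward. The change of a low gene is understated on this scale.

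The balance of the directions depended on the scaling. After division by size factors, 4411 genes were higher (19.4%) and 4378 lower (19.2%), so the higher share of the calls went from 39% to 50.2%. The size factors were 1.213 to 1.244 at 35 °C and 1.165 to 1.189 at 37 °C. The median change of all genes was -0.05 as deposited and 0.00 after scaling. The genes with at least 2-fold changes were less affected: 243 of the 254 higher and 403 of the 523 lower genes were past 2-fold after scaling too, where 1.19% and 1.77% of all genes were. Temperature was set per pair of chambers, so chamber pair and temperature cannot be told apart. The p-values measure only the spread between these samples, and the labels leave it unsettled whether a library holds 1 plant or several.

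Changes reached genes of every abundance. Among the 1466 genes with a mean of at least 100 FPKM, 37.7% were higher and 37.8% lower. Among the 2704 genes below 1 FPKM, 6.25% were higher and 12.4% lower. Transcripts listed without an annotated gene leaned the other way from nuclear genes: of 2128 tested, 313 (14.7%) were higher and 185 (8.69%) lower, against 16.1% and 26.7% of the 20570 nuclear genes. This difference was not tested. All-or-none changes were few: 8 genes with at least 1 FPKM in all 3 libraries at 35 °C were listed at 0 in all 3 at 37 °C, and 2 genes had the reverse.

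The largest rise among genes reaching 5 FPKM was that of Zm00001d017429. Its levels were 0.69, 0.94 and 1.18 FPKM at 35 °C and 66.58, 67.93 and 68.05 FPKM at 37 °C. Every 37 °C library was far above every 35 °C library, and the log2 change was 5.15 (SE 0.0968, limma adjusted p = 5.95e-33). In the mutant at V5 it was just as low in the cooler chambers, with means of 0.417 FPKM at 31 °C and 0.413 at 33 °C, so the step lay between 35 and 37 °C. Zm00001d033846 measured 3.87, 2.53 and 1.11 FPKM at 35 °C and 80.15, 88.98 and 96.94 FPKM at 37 °C. Its groups did not overlap either (log2 change 4.76, SE 0.2032, limma adjusted p = 2.48e-21). Its mean in the mutant was 3.76 FPKM at 31 °C and 1.97 at 33 °C. In a limma fit of the 6 libraries alone, the adjusted p was 8.25e-07 for Zm00001d017429 and 4.15e-05 for Zm00001d033846 (SE 0.2799). Both also rose in W22 at V5, Zm00001d017429 from 0.56 to 21.9 FPKM and Zm00001d033846 from 6.72 to 48.1 FPKM. Their log2 changes there were 3.882 and 2.675. Zm00001d033846 was not low at every cooler setting outside the mutant at V5. In W22 at V5 it averaged 42.1 FPKM at 31 °C and 2.62 at 33 °C. In bzip60-2 at V4 its means were 60.4, 70.2, 18.2 and 32.3 FPKM at 31, 33, 35 and 37 °C.

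The largest falls had another course. Zm00001d033987 measured 86.32, 67.81 and 72.37 FPKM at 35 °C and 5.54, 5.14 and 4.59 FPKM at 37 °C (log2 change -3.65, SE 0.1343, limma adjusted p = 2.27e-23). Its means at 31 and 33 °C were 3.36 and 2.34 FPKM, so 35 °C was the single warm setting at which the transcript was abundant. Zm00001d049244 measured 103.41, 95.35 and 92.27 FPKM at 35 °C and 7.77, 8.76 and 6.89 FPKM at 37 °C (log2 change -3.48, SE 0.1051, limma adjusted p = 4.06e-26). It averaged 40.8 FPKM at 31 °C and 25.3 at 33 °C, so it also peaked at 35 °C but was lowest at 37 °C. For both identifiers the 2 groups were fully apart. In W22 at V5 both also peaked at 35 °C. Zm00001d033987 fell there from 114.2 to 12.9 FPKM and Zm00001d049244 from 84.7 to 10.8 FPKM (log2 changes -3.05 and -2.86).

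**Figure D1:**
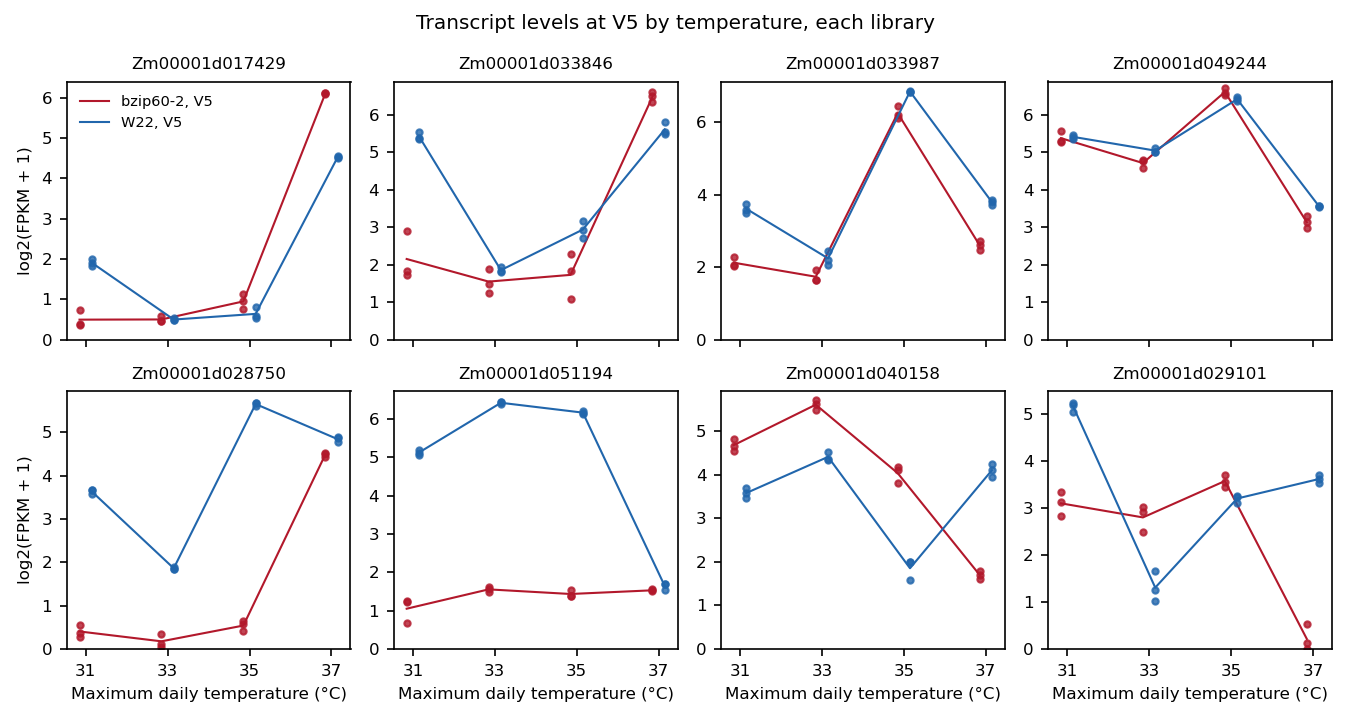
Levels of 8 nuclear identifiers at V5 as log2(FPKM + 1) against maximum daily temperature (°C), with a point for each library and a line through the mean of 3 libraries for bzip60-2 (red) and W22 (blue). The upper row holds the identifiers with the largest rise and fall in bzip60-2 from 35 to 37 °C, and the lower row those whose response differed most from that of W22.

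The strongly raised genes mostly had their highest level at 37 °C. Over the 254 genes, the median level in the mutant at V5 was 3.32, 3.78, 3.72 and 13.3 FPKM at 31, 33, 35 and 37 °C. At 37 °C, 238 of them (93.7%) had their highest mean of the 4 temperatures, against 21.7% of all genes. The 35 and 37 °C values chose these genes, so the independent part is that their 31 and 33 °C levels lay near that of 35 °C. Of the 523 lowered genes, 440 (84.1%) were lowest at 37 °C, against 38.6% of all genes, and 237 (45.3%) were highest at 35 °C, against 18.2%. The 35 and 37 °C values chose these genes too, which favours both outcomes, so the shares of all genes are no like background. Their median levels in the mutant were 12.7, 11.6, 13.0 and 4.61 FPKM at the 4 temperatures.

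The same genes were then followed in the 2 comparisons made from other libraries. In W22 at V5, 153 of the 254 raised genes (60.2%) were also higher at 37 °C, against 14% of all genes tested, and 39 (15.4%) were lower, against 31.9%. At least 2-fold higher there were 46 (18.1%, against 0.632%). Their median log2 change was 0.53 in W22 and 1.25 in the mutant, where they were chosen. In bzip60-2 at V4, 122 (48%) were higher, against 21.2% of all genes, and 25 (9.84%) at least 2-fold higher, against 0.351%, with a median of 0.28. A smaller change is the usual outcome for genes chosen by their size in 1 comparison, so these medians are no test of a difference.

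Many of the lowered genes were also lower in W22. At V5, 406 of the 523 (77.6%) were lower in W22 as well, against 31.9% of all genes, and 225 (43%) were at least 2-fold lower, against 3.38%. Their median log2 change was -0.85 in W22 and -1.24 in the mutant. In bzip60-2 at V4, 224 (42.8%) were lower, against 10.6%, and 48 (9.18%) at least 2-fold lower, against 0.623%, with a median of -0.28. Across all 22794 genes, the log2 changes of bzip60-2 at V5 had a Pearson correlation of 0.49 with those of W22 at V5 and of 0.35 with those of bzip60-2 at V4. These are descriptions across genes, which are not independent replicates. The calls of these other comparisons also shift with scaling: W22 at V5 had 3187 genes higher and 7278 lower as deposited, and 4620 (20.3%) and 4915 (21.6%) after scaling. In bzip60-2 at V4 they were 4835 and 2411 as deposited, and 2633 (11.6%) and 3529 (15.5%) after scaling.

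**Figure D2:**
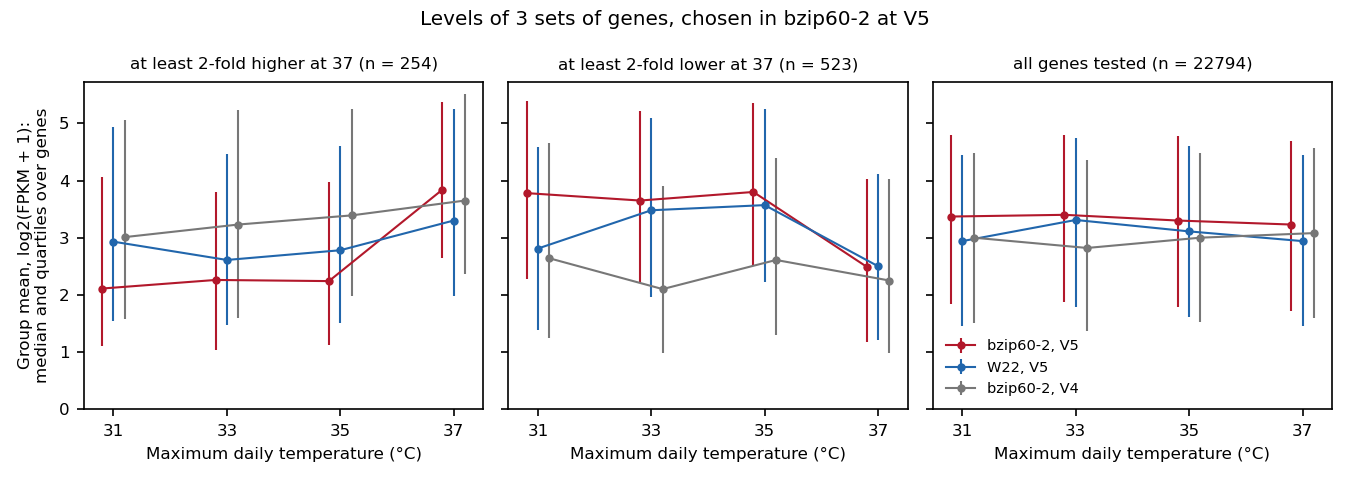
Median (points) and quartiles (bars) over genes of the group means, as log2(FPKM + 1), against maximum daily temperature (°C) for 254 genes at least 2-fold higher, 523 genes at least 2-fold lower and all 22794 genes tested. In bzip60-2 at V5 (red) the raised set steps up and the lowered set steps down at 37 °C, while the medians of W22 at V5 (blue) and bzip60-2 at V4 (grey) move less for both sets.

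The response of the mutant at V5 differed from that of W22 at V5 in 6111 genes (26.8%, limma interaction contrast, adjusted p below 0.05). The change was more positive in bzip60-2 for 3771 (16.5%) and more negative for 2340 (10.3%), and after scaling for 3008 (13.2%) and 2854 (12.5%). By at least 2-fold, 525 genes (2.3%) had the more positive and 241 (1.06%) the more negative change in the mutant. Of the 525 genes, 428 were lower at 37 °C in W22, against 7278 of all 22794 genes, and 259 were higher in the mutant, against 3639. Over all 525, the median log2 change was -1.03 in W22 and 0.34 in the mutant. Of the 241 genes, 187 were lower in the mutant, against 5700 of all 22794 genes, and 136 were higher in W22, against 3187. Over all 241, the median was -0.89 in the mutant and 0.41 in W22. These counts and medians describe the values that chose the genes. In the libraries not used for that choice, the 525 genes stood at a median log2 difference between mutant and W22 of 0.14 at 31 °C and -0.31 at 33 °C, against 0.34 and 0.08 for all genes. The 241 genes stood at 0.52 and 0.49.

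The identifiers with the largest differences between the genotypes fell into unlike patterns. Zm00001d028750 rose in the mutant from 0.49, 0.56 and 0.33 FPKM to 20.67, 21.91 and 21.78 FPKM. In W22 it fell from 49.33 ± 1.06 to 27.73 ± 1.29 FPKM (mean ± SD, n = 3). The difference in response was 4.76 on the log2 scale (SE 0.0966, limma adjusted p = 3.33e-31), and the mutant had been far below W22 in each of the cooler settings. Zm00001d051194 differed through W22: it dropped there from 70.8 ± 1.90 to 2.13 ± 0.182 FPKM, while the mutant measured 1.62, 1.90 and 1.61 FPKM at 35 °C and 1.89, 1.84 and 1.95 FPKM at 37 °C. The mutant's own change did not pass the threshold (0.10, SE 0.0973, limma adjusted p = 0.464), and the difference in response was 4.62 (SE 0.138, limma adjusted p = 6.77e-26).

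In the opposite direction, Zm00001d040158 crossed over. It measured 17.11, 13.06 and 16.31 FPKM in the mutant at 35 °C and 2.23, 2.06 and 2.48 FPKM at 37 °C, and in W22 it went from 2.65 ± 0.569 to 16.2 ± 1.80 FPKM. The difference in response was -4.58 (SE 0.175, limma adjusted p = 2.43e-22). Zm00001d029101 measured 12.07, 10.85 and 10.02 FPKM in the mutant at 35 °C and 0.44, 0.09 and 0 FPKM at 37 °C. In W22 it measured 8.24 ± 0.468 and 11.3 ± 0.790 FPKM, a change that did not pass the threshold as deposited (0.42, adjusted p = 0.0656) and passed it after scaling (0.53, adjusted p = 0.0169). The difference in response was -3.78 (SE 0.263, limma adjusted p = 1.9e-14). The mutant at V4 also fell to near 0 for this transcript, with 4.01, 2.79 and 3.90 FPKM at 35 °C and 0, 0.17 and 0 FPKM at 37 °C.

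**Figure D3:**
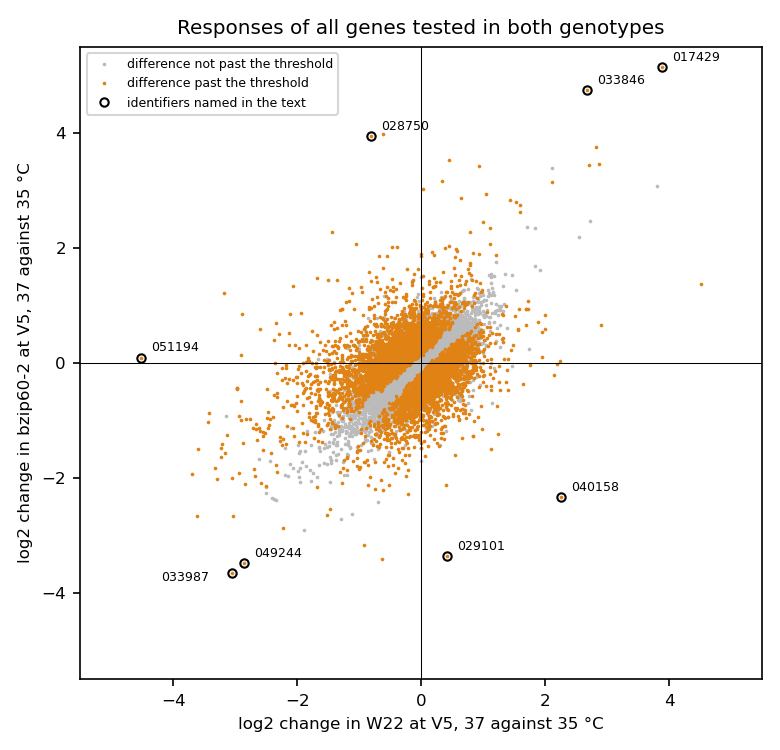
The log2 change from 35 to 37 °C in bzip60-2 at V5 against that in W22 at V5 for each of 22794 genes, with genes whose difference passed the threshold in orange, the others in grey, and the 8 named identifiers circled and marked by their last digits. Points off the diagonal changed by different amounts, such as Zm00001d040158, with -2.33 in bzip60-2 and 2.25 in W22.

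Part of the plastid genome's transcripts rose at 37 °C. Of 53 plastid genes with a name, 22 did not pass the filter of 1 FPKM in 3 libraries. The other 31 give 29 separate genes, since rpl2 and ndhB are each listed in a pair of copies with the same values. Of the 29, 11 were higher (37.9%, against 16% of all genes) and 2 lower (6.9%, against 25%), with the same counts after scaling. Their median log2 change was 0.38, against -0.05 for all genes, and 23 of 29 changes were positive. In 14 genes all 3 libraries at 37 °C lay above all 3 at 35 °C, against 19.8% of all genes, and in 2 all lay below, against 30.3%. Plastid genes took 0.1407%, 0.1186% and 0.1395% of the FPKM at 35 °C and 0.2018%, 0.1957% and 0.1927% at 37 °C, so the groups did not overlap (exact two-sided permutation p = 0.1, the smallest that 3 against 3 allows). Replicate 2 at 35 °C was lowest. This share is weighted to the most abundant of the transcripts, ndhK, rps3 and ndhC, with means of 372.6, 315.6 and 302.2 FPKM over the 6 libraries. The plastid share also rose without overlap in W22 at V5, from a mean of 0.1875% to 0.2075%. It did so in bzip60-2 at V4 too, from 0.2038% to 0.2203% (exact two-sided permutation p = 0.1 in each). In whole leaf pieces, a change in the number of chloroplast-rich cells and a change in the RNA of each cell cannot be told apart.

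The genes for the NDH complex, which passes electrons around photosystem I, held 2 of the 3 most abundant of these transcripts. ndhK measured 294.49, 248.18 and 287.31 FPKM at 35 °C and 492.25, 474.03 and 439.47 FPKM at 37 °C. All 37 °C libraries were above all 35 °C libraries, and the log2 change was 0.76 (SE 0.0583, limma adjusted p = 9.1e-14). Its neighbour on the plastid genome, ndhC, went from 256.6, 223.29 and 276.28 FPKM to 360.24, 358.95 and 338.1 FPKM (0.49, SE 0.0726, limma adjusted p = 7.31e-07). The third member of this complex that passed, ndhA, was low, at 2.09 ± 0.325 and 3.03 ± 0.446 FPKM (0.38, limma adjusted p = 0.0291). The other 5 NDH genes tested ranged from -0.07 to 0.23 and did not pass.

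Among genes for the plastid ATP synthase, which makes ATP from the proton gradient, 2 of 5 were higher (40%, against 16% of all genes). atpF measured 71.93, 59.61 and 58.43 FPKM at 35 °C and 108.52, 109.8 and 105.59 FPKM at 37 °C (0.77, SE 0.0813, limma adjusted p = 4.47e-10). atpB, which encodes the catalytic beta subunit, measured 7.68, 5.25 and 5.7 FPKM and then 14.28, 11.85 and 11.6 FPKM (0.92, SE 0.114, limma adjusted p = 1.66e-08). In both the groups were apart. atpI, atpH and atpE had changes of 0.17, 0.38 and 0.39 that did not pass.

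Genes for the plastid's expression machinery rose as well. matK, the maturase that helps to splice plastid introns, had the largest rise of the 29 plastid genes, from 3.44, 2.36 and 3.44 FPKM to 8.43, 8.63 and 8.2 FPKM (1.22, SE 0.116, limma adjusted p = 2.95e-11). Its groups were well apart. Of 9 ribosomal protein genes, 4 were higher (44.4%, against 16% of all genes). The most abundant was rps3, with 259.73, 224.64 and 243.76 FPKM at 35 °C and 378.88, 381.99 and 404.47 FPKM at 37 °C (0.68, SE 0.102, limma adjusted p = 9.15e-07). Its neighbour rpl22 rose by 0.47 (limma adjusted p = 0.00863) and rps4 by 0.39 (0.00105). rpl16 had a change of 0.96 that did not pass (limma adjusted p = 0.17), with 11.74, 12.27 and 18.82 FPKM at 35 °C and 26.48, 23.08 and 36.48 FPKM at 37 °C. rpoC1, a subunit of the plastid-encoded RNA polymerase, rose by 0.38 (limma adjusted p = 0.0138).

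The photosystem I group did not rise. psaA and psaB, the paired core proteins that hold the reaction centre, had changes of 0.01 and -0.01. ycf3, an assembly factor of photosystem I encoded beside psaA, measured 68.9, 67.42 and 69.49 FPKM at 35 °C and 42.67, 33.13 and 40.72 FPKM at 37 °C (-0.81, SE 0.0982, limma adjusted p = 9.55e-09). It fell with every library at 37 °C below every library at 35 °C. Its level in the mutant at V5 was 115.7 ± 2.37 FPKM at 31 °C and 102.9 ± 6.57 at 33 °C. psbC, an inner antenna protein of photosystem II, had a change of 0.17 that did not pass.

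The second plastid gene that fell was clpP, the proteolytic subunit of the Clp protease. It was at 0.47, 0.81 and 2.03 FPKM at 35 °C and listed at 0 in all 3 libraries at 37 °C (-1.004, SE 0.277, limma adjusted p = 0.00336). The mutant at V5 had far more of it in the cooler settings, with means of 18.7 FPKM at 31 °C and 23.2 at 33 °C. In W22 at V5 and at 35 °C all 3 libraries were listed at 0. An exact 0 can be a failed estimate in such files, so the size of this fall is uncertain. Leaving out single libraries ended several plastid calls. The adjusted p was 0.0571 for clpP without 35 °C replicate 3, 0.0668 for rpoC1 without 35 °C replicate 1 and 0.094 for rpl22 without 35 °C replicate 2. For ndhA it was 0.114, 0.0806, 0.0519 and 0.145 without 35 °C replicates 2 and 3 and 37 °C replicates 2 and 3. The count of the 29 plastid genes then ranged from 8 to 11 higher and from 1 to 2 lower.

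**Figure D4:**
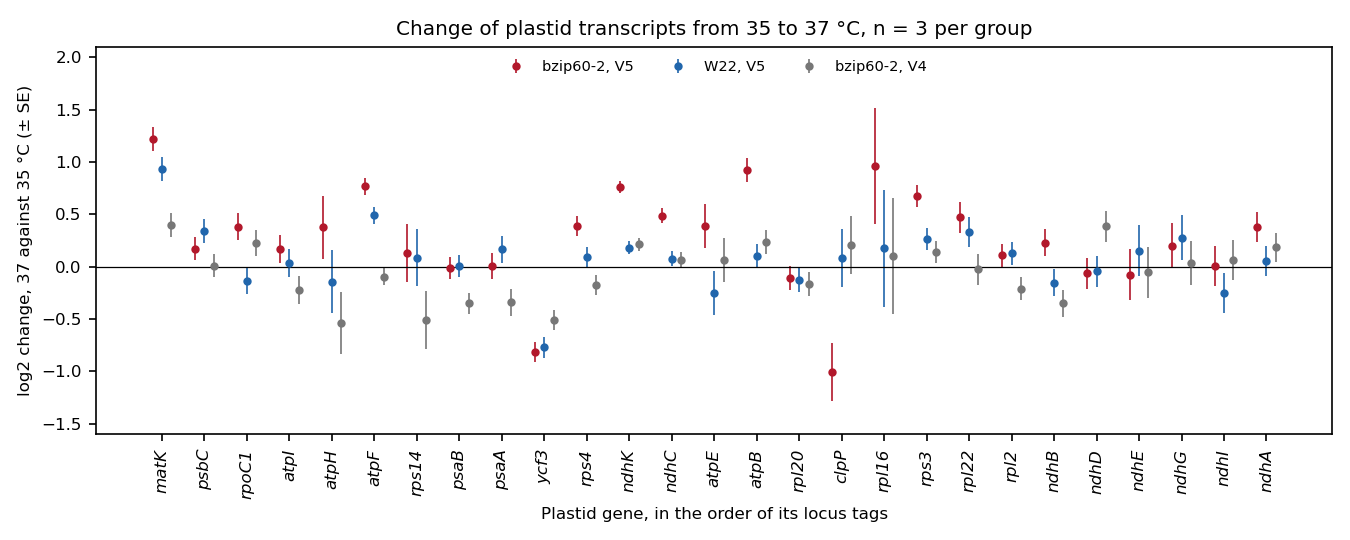
The log2 change from 35 to 37 °C (points, with SE bars from the fit) of 27 plastid genes in the order of their locus tags, for bzip60-2 at V5 (red), W22 at V5 (blue) and bzip60-2 at V4 (grey), n = 3 libraries per group. In bzip60-2 at V5, matK, atpF, ndhK, ndhC, atpB and rps3 lie clearly above 0, while ycf3 lies below 0 for all 3.

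Fewer plastid genes passed in the other comparisons. In W22 at V5, 5 of the 29 were higher (17.2%, against 14% of all genes) and 1 lower (3.45%, against 31.9%), and after scaling 8 and 1, against 20.3% and 21.6% of all genes. In bzip60-2 at V4, 3 were higher (10.3%, against 21.2%) and 4 lower (13.8%, against 10.6%), and after scaling 1 and 7, against 11.6% and 15.5%. Tested directly, the response of 6 of the 29 genes was more positive in the mutant than in W22 (20.7%, against 16.5% of all genes) and that of 1, clpP, more negative (3.45%, against 10.3%). After scaling, 4 and 0 passed, against 13.2% and 12.5% of all genes, so the count of the more positive was near the background. In W22, clpP was listed at 0 in all 3 libraries at 35 °C, so its difference restates the mutant's own change and compares no genotypes. ndhK had a difference in response of 0.58 (limma adjusted p = 6.46e-07), atpB of 0.82 (0.000118) and ndhC of 0.41 (0.00212), and these passed with both scalings. rps3 (0.41, adjusted p = 0.0301) and rpoC1 (0.52, 0.0268) passed as deposited alone, with 0.066 and 0.0618 after scaling. matK and atpF also rose in W22 at V5, by 0.94 and 0.49 (limma adjusted p = 1.36e-08 and 3.97e-06). Their differences in response, 0.28 each, did not pass (limma adjusted p = 0.22 and 0.0722). In bzip60-2 at V4, matK rose by 0.40 (limma adjusted p = 0.00756), while atpF did not pass (-0.095, 0.413).

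For ndhK and atpB the genotypes stood further apart at 35 °C than at 37 °C. At 35 °C, mean ndhK was 276.7 ± 24.9 FPKM for bzip60-2 and 410.3 ± 8.23 for W22, and the means were 468.6 ± 26.8 and 466.6 ± 27.0 at 37 °C (n = 3 each). For atpB the mutant's mean was 6.21 ± 1.29 FPKM beside 12.1 ± 2.01 in W22 at 35 °C, and 12.6 ± 1.48 beside 13.0 ± 1.70 at 37 °C. These levels are as deposited. Mean size factors were 1.231 in bzip60-2 and 1.06 in W22 at 35 °C, and 1.175 and 0.9689 at 37 °C. Scaling therefore lowers the mutant relative to W22, so the near-equal levels at 37 °C hold as deposited alone. The plastid share of the FPKM contains ndhK and atpB, so it is no separate evidence. It was 0.1329% in the mutant and 0.1875% in W22 at 35 °C, and 0.1967% and 0.2075% at 37 °C. ycf3 did not differ detectably in its response: it fell by 0.77 in W22, and the difference of -0.04 (SE 0.139) had an adjusted p of 0.871.

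As deposited, mitochondrial transcripts had calls in the lower direction alone, and the shares that were lower were near or below that of all genes. Of 29 named mitochondrial genes, 21 passed the filter. Of these, 0 were higher (against 16% of all genes) and 4 lower (19%, against 25%), with a median log2 change of -0.05 (limma). At an unadjusted p below 0.05 the counts were also 0 and 4, where 10887 of all 22794 genes passed in either direction. After scaling, 0 were higher and 1 of the 4 passed as lower, against 19.4% and 19.2% of all genes. With single libraries left out, 0 were higher and 1 to 5 lower; 1 was lower without 35 °C replicate 1, 35 °C replicate 3 or 37 °C replicate 2, 2 without 37 °C replicate 1 or 3, and 5 without 35 °C replicate 2. Of 44 mitochondrial reading frames without a gene name, 0 were higher (against 16% of all genes) and 12 lower (27.3%, against 25%), or 0 and 16 unadjusted. After scaling, 1 was higher and 9 lower, against 19.4% and 19.2% of all genes. The share of the FPKM from mitochondrial genes was 0.03262%, 0.02923% and 0.03379% at 35 °C and 0.02617%, 0.02558% and 0.02491% at 37 °C. These groups did not overlap (exact two-sided permutation p = 0.1, the smallest possible), and replicate 2 at 35 °C was again the lowest of its group. In W22 at V5 the mean share was 0.02392% and then 0.02422%, with overlapping groups. In bzip60-2 at V4 it went the other way, from 0.0148% to 0.01674%, with every library at 37 °C above every library at 35 °C (exact two-sided permutation p = 0.1).

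rps12, a ribosomal protein gene and the most abundant of the named mitochondrial genes, measured 45.79, 41.98 and 52.05 FPKM at 35 °C and 31.34, 35.26 and 34.77 FPKM at 37 °C. The groups were apart, and the log2 change was -0.45 (SE 0.166, limma adjusted p = 0.0276, and 0.0663 after scaling). In W22 it measured 34.3 ± 5.48 and 42.7 ± 4.54 FPKM, and the responses differed by -0.76 (SE 0.234, limma adjusted p = 0.0126, and 0.00745 after scaling). nad9 and nad4, subunits of respiratory complex I, had changes of -0.50 (limma adjusted p = 0.0395, and 0.0892 after scaling) and -0.40 (0.021, and 0.0596 after scaling). nad9 measured 18.79, 13.41 and 19.29 FPKM at 35 °C and 13.04, 10.3 and 11.9 FPKM at 37 °C.

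atp6, a subunit of the mitochondrial ATP synthase, measured 6.94, 5.18 and 5.62 FPKM at 35 °C and 4.8, 3.75 and 3.69 FPKM at 37 °C, a change of -0.44 that passed with both scalings (limma adjusted p = 0.0138 and 0.0377). None of the 4 mitochondrial calls (nad4, nad9, rps12 and atp6) stayed past the threshold in all 6 fits that left out a library. The adjusted p reached 0.0982 for atp6 (without 35 °C replicate 1, and also above the threshold without 37 °C replicates 2 or 3) and 0.105 for nad4 (without 35 °C replicate 3, and also without 37 °C replicates 1 or 2). It reached 0.122 for rps12 (without 35 °C replicate 3, and also without 35 °C replicate 1 or 37 °C replicate 1) and 0.149 for nad9 (without 35 °C replicate 3, and also without 35 °C replicate 1 or 37 °C replicates 2 or 3). The 3 cytochrome c oxidase genes, cox1, cox2 and cox3, had changes of -0.17, 0.11 and 0.41 that did not pass. atp4, among the 3 most abundant of the named genes, stood at 11.18, 10.89 and 12.28 FPKM and then 13.28, 10.86 and 10.75 FPKM, with overlapping groups. atp8 and nad4L had more positive responses in the mutant than in W22, by 0.99 (limma adjusted p = 0.00308) and 1.03 (0.0455), while their own changes in the mutant, 0.33 and 0.29, did not pass. nad4L was very low, with 0.35, 0 and 0.36 FPKM in the mutant at 35 °C and 1.47, 0.35 and 0 FPKM at 37 °C. In W22 its means were 0.857 and 0.12 FPKM. Without 37 °C replicate 1 its change in the mutant was -0.076.

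**Figure D5:**
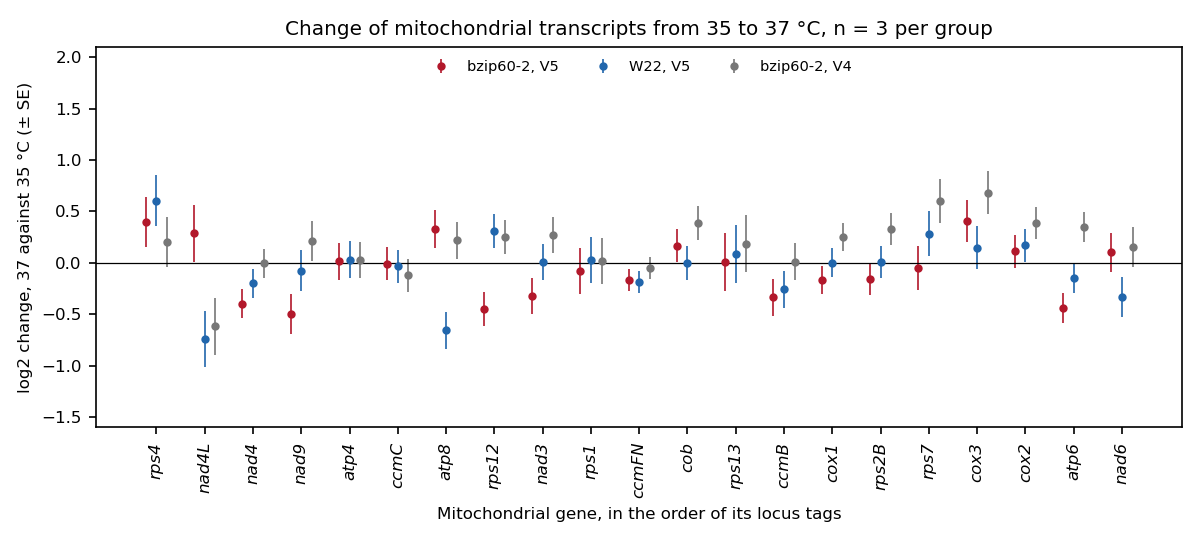
The log2 change from 35 to 37 °C (points, with SE bars from the fit) of 21 mitochondrial genes in the order of their locus tags, for bzip60-2 at V5 (red), W22 at V5 (blue) and bzip60-2 at V4 (grey), n = 3 libraries per group. The changes of bzip60-2 at V5 run from -0.50 to 0.41, and rps12, nad9, nad4 and atp6 are the 4 that passed the threshold as deposited.

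Against the younger stage, the response of bzip60-2 differed in 6688 genes (29.3%), and the balance of directions turned with scaling: 1775 (7.79%) had the more positive change at V5 and 4913 (21.6%) the more negative as deposited, and 2840 (12.5%) and 2051 (9%) after scaling. The median difference over all genes was -0.14 as deposited and 0.00 after scaling. Of the 8 named identifiers, 7 kept the direction of this difference with both scalings; that of Zm00001d051194 was -0.05 as deposited and 0.06 after scaling and passed with neither (limma adjusted p = 0.818 and 0.808). Zm00001d049244, which fell at V5, went from 10.98 ± 0.874 to 15.3 ± 1.15 FPKM at V4, a rise of 0.44 (limma adjusted p = 0.00109), and the responses differed by -3.92. Zm00001d017429 rose at V4 too, from 1.19 ± 0.142 to 8.74 ± 0.546 FPKM, and the responses differed by 3.00. Of the 29 plastid genes, 8 had the more positive response at V5 (27.6%, against 7.79% of all genes), and after scaling 13, against 12.5%. With both scalings, 1 had the more negative response, clpP, which was listed at 0 in the 3 V4 libraries at 35 °C, so this too restates its change at V5.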

How the data were processed

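Poly(A) RNA of maize leaves was sequenced, and the authors deposited 1 table with the FPKM of each of 48 libraries to 2 decimals, per the file headers. Per the submitters' processing notes, the tools were RSEM 1.2.12, DESeq2 1.4.5, Bowtie2 2.2.5, HISAT and HISAT2 2.0.4, with no step named. Neither genome build nor annotation is given in the sources used here, and it is not known how reads of near-identical genes were split. Counts were not used here. Of the plastid genes tested, 2 are counted but not reported here by name or drawn.

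From the deposited FPKM, log2(FPKM + 1) values were computed for 22794 of 33309 genes, those that reached 1 FPKM in 3 or more of the 48 libraries. Groups follow the labels. A model of 16 group means was fitted to all libraries in R 4.3.3 by limma 3.58.1, using empirical Bayes moderation with a trend, two-sided, with Benjamini-Hochberg adjustment over all genes and a threshold of 0.05. Differences in response were interaction contrasts of that fit. A size factor is a library's median ratio to the geometric mean, taken over 19820 genes. The method was tested on simulated data. Figures used Python 3.11.15 and matplotlib 3.10.9.

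Named are the 2 identifiers with the largest rise and the 2 with the largest fall (mean of at least 5 FPKM in the higher group, groups apart), the 2 each way with the largest difference from W22, the 3 most abundant plastid and mitochondrial genes, and up to 3 organelle genes each way with the largest changes. Other organelle genes were named after their values were seen. The 30 gene lists by function and cell type could not be applied, since 0 nuclear identifiers matched the reference table of names (assembly Zm-B73-REFERENCE-NAM-5.0). All members and lists were chosen with earlier results of these data known. Replicate numbers were not taken as pairs: deviations of same-numbered libraries correlated at 0.036, 0.038 and -0.021. No 2 of the 18 libraries compared held identical values.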

Additional observations from a re-analysis of the deposited data

Results flagged for a closer look

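The response from 35 to 37 °C differed by an interaction test in 6111 genes between bzip60-2 and W22 at V5, and in 6688 genes between V5 and V4 in bzip60-2 (limma, adjusted p below 0.05). The named transcripts among them, clpP excepted because the groups set beside it were listed at 0 at 35 °C, are given here as log2 differences in response, with no cause tested.

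Between bzip60-2 and W22 at V5, the difference was 1.27 for Zm00001d017429, 2.08 for Zm00001d033846, -0.59 for Zm00001d033987 and -0.62 for Zm00001d049244. Each of these changed in the same direction in both genotypes. The difference was 4.76 for Zm00001d028750, 4.62 for Zm00001d051194, -4.58 for Zm00001d040158 and -3.78 for Zm00001d029101. Among organelle genes it was 0.58 for ndhK, 0.41 for both rps3 and ndhC, 0.82 for atpB, 0.52 for rpoC1, -0.76 for mitochondrial rps12, 0.99 for atp8 and 1.03 for nad4L. The levels of nad4L were mostly below 1 FPKM, where values are the least certain.

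Between V5 and V4 in bzip60-2, the difference was 3.00 for Zm00001d017429, 3.96 for Zm00001d033846, -2.09 for Zm00001d033987 and -3.92 for Zm00001d049244. It was 1.45 for Zm00001d028750, -0.84 for Zm00001d040158 and -1.26 for Zm00001d029101. Among plastid genes it was 0.55 for ndhK, 0.54 for rps3, 0.42 for ndhC, 0.82 for matK, 0.69 for atpB, 0.86 for atpF, 0.56 for rps4 and 0.58 for ndhB, and among mitochondrial genes -0.70 for rps12 and -0.80 for atp6. After scaling, the difference of rps12 was -0.535 and did not pass (limma adjusted p = 0.105), while that of atp6 still passed (0.0196). Zm00001d029101 fell to near 0 FPKM at both stages, from means of 11.0 FPKM at V5 and 3.57 at V4. On this scale such a fall is limited by the level at 35 °C, so -1.26 does not show a larger fold change at V5.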

How the results depend on the processing

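Of 87 recomputed counts, 85 stayed within 1.5 times the reported count. The exceptions came from a pseudocount of 0.1 in place of 1, which lets low genes show larger changes by construction: 508 genes were then at least 2-fold higher and 994 at least 2-fold lower. Leaving out single libraries gave 8311 to 8421 genes past the threshold, 254 to 275 at least 2-fold higher and 517 to 560 at least 2-fold lower. The count of genes that differed in response was then 5514 to 5744 for W22 and 5950 to 6338 for V4. With the replicate number as a block, 7502 genes passed in a fit of the 6 libraries (8584 without the block) and 9260 in the fit of all libraries, against 9339. Of 171 values of single named genes under the other alternatives, 166 kept their direction and call and 4 lost the call (rps12 and nad9). Of 138 with a library left out, 126 kept both and 10 lost the call (rps12, nad9 and atp6). The uncalled change of atp4, 0.02, turned sign in the others: -0.023 with array weights, -0.016 without 35 °C replicate 2 and -0.075 without 37 °C replicate 1, against up to 0.066 with the other libraries left out. Absolute depth is unknown, so no floor can be given for genes listed at 0, and values under about 1 FPKM are the least certain.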
